A study of Mus musculus with 9 samples.

Results

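Mouse chromosome 2 carried 11557 of the 146734 ATAC-seq peaks of the series, or 7.88% of them, and all 11557 passed the filter on low values. The members were every peak whose deposited name places it on that chromosome, and no measured value was used to pick 1 peak over another. The chromosome itself was chosen because its accessibility stood low against the control, so its folds against the control are given as a description, without a test at the level of the chromosome. The start and end in each peak's name are 501 bases apart, on the GRCm38 (mm10) build.

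The study measured open chromatin in D2A1-d cells, a murine breast carcinoma line, in 3 groups of 3 libraries. Cells of the group called NTC were transduced with a non-targeting control hairpin and are labelled WT. Cells of the groups shMed4 #1 and shMed4 #4 were transduced with a different hairpin each against Med4 and are labelled Med4 Knockdown. All groups carry the treatment label Untreated, and metastatic dormancy is the subject the series title gives. A hairpin acts on RNA, so peaks at Med4 do not check the knockdown. The libraries are labelled biological replicates, but separate transductions are not stated, so the p-values below measure the spread between these libraries.

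ATAC-seq uses a transposase that cuts accessible DNA, so the reads in a peak rise with how open the stretch is and with how many copies of it the cells carry. Mediator bridges transcription factors bound at enhancers and promoters and RNA polymerase II, and MED4 sits in its middle module. Mouse chromosome 2 holds the HoxD cluster, a large share of the olfactory receptor genes, imprinted genes of the Gnas and Nnat regions, and genes of the cell cycle such as Aurka, Pcna and E2f1. In bulk cells, less open chromatin per copy, fewer cells with the region open and fewer copies of the region give the same reading and cannot be told apart.

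Libraries held from 44.8 to 98.9 M reads within peaks, of which 3.62 to 8.41 M were on chromosome 2, with a median of 114 to 262 reads per chromosome 2 peak. Of 7 epithelial marker genes, 4 (Epcam, Cdh1, Cldn4 and Esrp1) had no peak within 1 kb of a gene end. Krt8 had one at 929 normalised reads in NTC, Krt18 at 164 and Cldn7 at 67.6. Of 7 mesenchymal markers, 6 had such a peak, from Zeb2 at 70.4 to Vim at 4155, and Cdh2 had none. Of the immune and endothelial markers, 1 of 5 and 1 of 4 had such a peak. Pairs of libraries of the same group differed by a chi-square of 2.01 to 2.99 per degree of freedom over peaks, and pairs of different groups by 9.82 to 28.5, so no libraries were merged.

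Most of the single peaks described below lie away from gene starts. Promoters are shown for Grb14, Kif5c and Dnmt3b, whose peaks lie at gene starts among the 12 most raised and 12 most lowered, and for Fbln7, a lowered member of the integrin and matrix list. Each runs from 250 bases before the start of the gene to 50 bases after it, read along the gene's strand, from RefSeq on GRCm38.p6. Grb14 lies on the minus strand at chr2:65022717-65023016 and Kif5c on the plus strand at chr2:49619036-49619335. Dnmt3b lies on the plus strand at chr2:153649199-153649498 and Fbln7 on the plus strand at chr2:128863682-128863981. Capitals mark matches to GGGCGG or CCAAT on either strand, so that CCGCCC and ATTGG are the reverse complements, and adjoining GGGCGG matches run together.
Grb14 promoter, raised: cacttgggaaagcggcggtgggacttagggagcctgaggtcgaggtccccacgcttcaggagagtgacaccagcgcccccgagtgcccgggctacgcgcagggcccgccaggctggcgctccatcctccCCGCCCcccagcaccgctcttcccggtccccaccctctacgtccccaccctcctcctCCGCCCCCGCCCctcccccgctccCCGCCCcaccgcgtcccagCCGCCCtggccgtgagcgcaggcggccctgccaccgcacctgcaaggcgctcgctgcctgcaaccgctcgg
Kif5c promoter, raised: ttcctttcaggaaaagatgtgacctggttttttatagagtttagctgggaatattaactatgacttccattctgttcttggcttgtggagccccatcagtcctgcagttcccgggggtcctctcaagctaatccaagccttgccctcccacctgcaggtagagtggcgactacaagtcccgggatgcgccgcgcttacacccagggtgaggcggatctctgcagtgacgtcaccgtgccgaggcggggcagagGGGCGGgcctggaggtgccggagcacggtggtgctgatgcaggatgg
Dnmt3b promoter, lowered: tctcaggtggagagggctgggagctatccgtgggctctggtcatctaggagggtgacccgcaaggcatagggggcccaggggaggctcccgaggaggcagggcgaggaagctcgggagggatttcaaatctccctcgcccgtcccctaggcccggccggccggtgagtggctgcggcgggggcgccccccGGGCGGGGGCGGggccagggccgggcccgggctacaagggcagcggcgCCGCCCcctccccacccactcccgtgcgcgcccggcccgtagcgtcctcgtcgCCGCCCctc
Fbln7 promoter, lowered: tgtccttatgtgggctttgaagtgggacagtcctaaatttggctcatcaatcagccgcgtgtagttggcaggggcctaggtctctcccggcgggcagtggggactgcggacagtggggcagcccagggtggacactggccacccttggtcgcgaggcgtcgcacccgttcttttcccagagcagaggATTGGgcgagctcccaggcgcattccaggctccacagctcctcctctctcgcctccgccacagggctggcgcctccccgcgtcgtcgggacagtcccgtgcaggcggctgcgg
GGGCGG, the core of the GC box, was found 5 times at Grb14, 1 time at Kif5c, 4 times at Dnmt3b and not in this window of Fbln7. CCAAT was found 1 time, at Fbln7. TGANTCA, the core of the AP-1 motif, was in none of the 4 windows. Among 32851 mouse promoters of the same length, 35.7% held GGGCGG, 37.4% held CCAAT and 7.81% held TGANTCA. The shares were 34.5%, 34.9% and 8.89% for the 2847 promoters of chromosome 2. GC content was 75.3% at Grb14, 58% at Kif5c, 76% at Dnmt3b and 66% at Fbln7, against a median of 52.7% over all promoters. GC-rich windows were thus found among both the raised and the lowered promoters.

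Chromosome 2 took a smaller share of the reads in peaks with either hairpin than in the control. Its share was 8.76%, 8.77% and 8.76% in the NTC libraries, 7.24%, 7.24% and 7.23% with hairpin #1, and 8.04%, 8.07% and 8.08% with hairpin #4. The groups did not overlap, and the spread within each was at most 0.0199 percentage points (SD). Separation of the groups was not particular to chromosome 2. On chromosome 9 the mean share was 4.35% in NTC, 4.64% with hairpin #1 and 4.52% with hairpin #4 (SD at most 0.0223). Not every chromosome showed it, since on chromosome 14 the NTC and hairpin #1 means were 3.341% and 3.336%. The median log2 fold over the 11557 peaks was -0.32 with hairpin #1 and -0.16 with hairpin #4, the lowest of the chromosomes measured with each. Over the peaks of all other chromosomes it was 0.01 and -0.01. Chromosome 2 thus stood 20.1% below the rest of the genome with hairpin #1 and 10.2% below it with hairpin #4. Both comparisons use the same NTC libraries. A rescaling of whole libraries moves the medians but by its construction leaves these distances as they are. Chromosome 12 came next, with medians of -0.24 and -0.15 over its 5773 peaks, so with hairpin #4 it lay close to chromosome 2, and a low reading was not particular to chromosome 2.

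**Figure D1:**
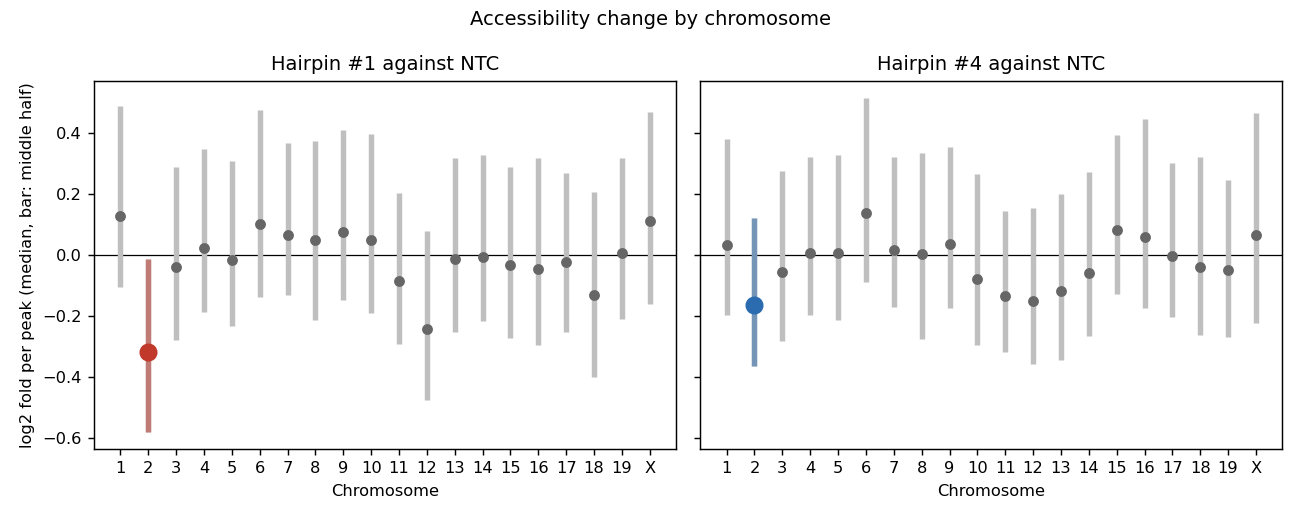
Median log2 fold against NTC over the peaks of each chromosome (points) with the quartiles of the peaks (bars), for hairpin #1 on the left and hairpin #4 on the right. Chromosome 2, in colour, lies lowest in both panels, at -0.32 and -0.16.

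The shift was a displacement of most peaks and not the loss of a few. With hairpin #1, 75.6% of chromosome 2 peaks lay below 0, against 49.4% of the peaks elsewhere. With hairpin #4, 67.0% lay below 0, against 51.0% elsewhere. The quartiles of the peaks ran from -0.58 to -0.01 with hairpin #1 and from -0.36 to 0.12 with hairpin #4. Changes of at least 2-fold were few. With hairpin #1, 891 peaks (7.71%) were at least 2-fold lower and 352 (3.05%) at least 2-fold higher, beside 2.58% and 6.53% of all peaks tested. With hairpin #4, 174 (1.51%) were at least 2-fold lower and 492 (4.26%) at least 2-fold higher, beside 0.923% and 7.13% of all peaks.

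Peaks were called with limma at a Benjamini-Hochberg adjusted p under 0.05 over all 146729 peaks tested. With hairpin #1, 6413 chromosome 2 peaks (55.5%) were called lower and 1575 (13.6%) higher, beside 24.9% and 27.9% of all peaks. With hairpin #4, 4363 (37.8%) were called lower and 2040 (17.7%) higher, beside 24.3% and 26.2%. On chromosome 12, 48.1% and 37.9% of the peaks were called lower. The counts depend on the scaling. With each library centred on gene-end peaks, 5195 chromosome 2 peaks were called lower and 1915 higher with hairpin #1, and 2689 lower and 2533 higher with hairpin #4, whose median was then -0.057. Since these contrasts chose the chromosome, nothing is read from those shares. Next, each library's median was set to 0 on every chromosome, which leaves departures from the chromosome's own shift and by its construction balances the signs. With hairpin #1, 3164 chromosome 2 peaks (27.4%) were then called higher and 2785 (24.1%) lower, beside 27.1% and 23.6% of all peaks treated alike. With hairpin #4, 2792 (24.2%) were called higher and 2411 (20.9%) lower, beside 25.7% and 23%. The share of chromosome 2 peaks that departed was thus near that of all peaks.

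The windows along the chromosome showed where the shift was deep and where it was shallow. The 37 windows of 5 Mb that held peaks in sufficient number all had a median below 0 with hairpin #1, from -0.50 to -0.13. With hairpin #4, 36 of 37 were below 0, in a range from -0.27 to 0.0038, and the exception was the window from 135 to 140 Mb. On the other chromosomes 39.7% of 478 windows were below 0 with hairpin #1 and 42.7% with hairpin #4. The 5th percentile of those windows was -0.21 and -0.20, and 29 and 6 of the chromosome 2 windows lay below it. Most windows with hairpin #1 thus lay under that percentile, and most with hairpin #4 did not. Windows of 2 Mb showed local exceptions, with 78 of 83 below 0 and a highest median of 0.31 with hairpin #1, and 75 of 83 and 0.73 with hairpin #4.

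**Figure D2:**
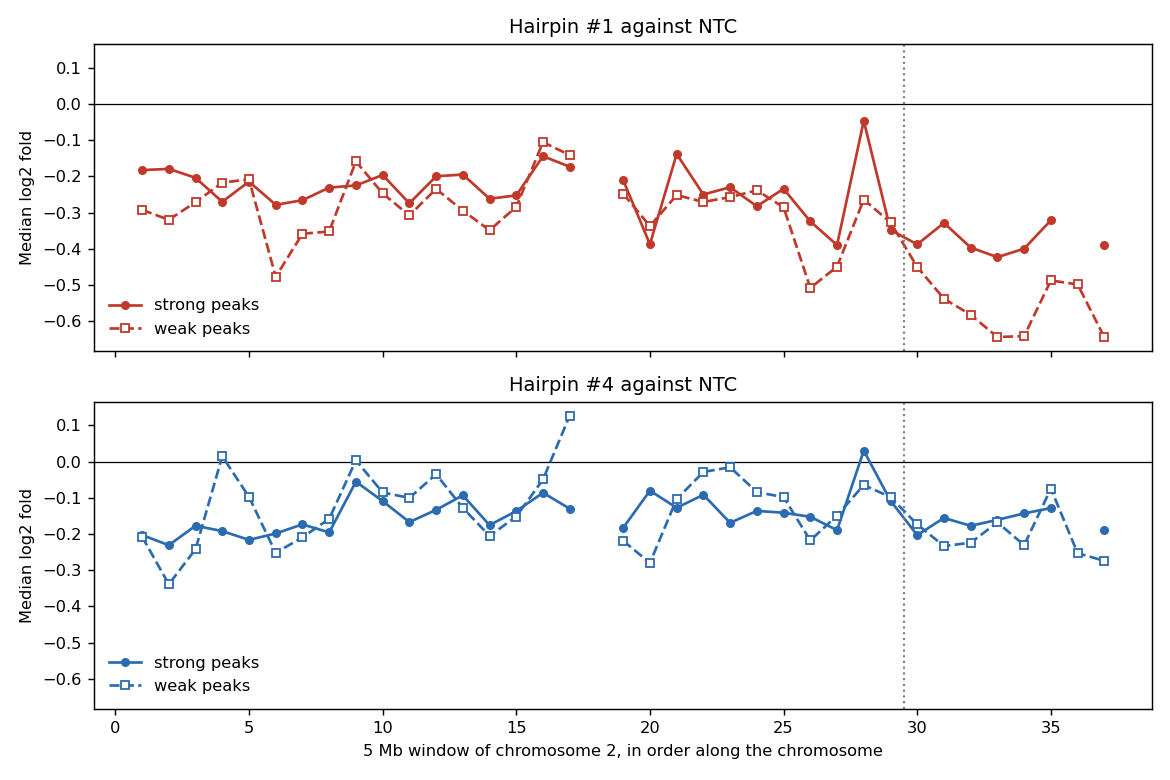
Median log2 fold against NTC in consecutive 5 Mb windows of chromosome 2, in order from its start, for strong peaks (filled circles) and weak peaks (open squares), with at least 20 peaks per point. The dotted line marks the split with hairpin #1, at 145 Mb, past which its weak peaks reach -0.64, while hairpin #4 shows no such step.

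Toward the far end of the chromosome the fold with hairpin #1 dropped. Its 3 lowest windows were 160 to 165 Mb at -0.50, 180 to 185 Mb at -0.49 and 165 to 170 Mb at -0.46. Its 3 highest were 75 to 80 Mb at -0.13, 135 to 140 Mb at -0.16 and 80 to 85 Mb at -0.17. A single split fitted by least squares to the window medians fell at 145 Mb and took up 65.5% of their sum of squares. The median was -0.27 over the 8422 peaks before it and -0.45 over the 3135 peaks after it. Windows short of the split were already low, at -0.38 from 125 to 130 Mb and -0.40 from 130 to 135 Mb. The window from 135 to 140 Mb, at -0.16, interrupted this, and 140 to 145 Mb stood at -0.34. With windows of 2 and 10 Mb the split came at 142 and 140 Mb.

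Hairpin #4 had no comparable step. Its lowest windows were 5 to 10 Mb at -0.27, 175 to 180 Mb at -0.26 and 180 to 185 Mb at -0.22. Its highest were 135 to 140 Mb at 0.0038, 40 to 45 Mb at -0.02 and 80 to 85 Mb at -0.06. The best single split, at 40 Mb, took up 15.0% of the sum of squares. The median was -0.16 before 145 Mb and -0.18 after it.

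The hairpins therefore parted most over the last stretch of the chromosome. A split fitted to hairpin #4 against #1 itself fell at 125 Mb and took up 68.8% of the sum of squares. The medians were 0.10 before that point and 0.26 after it. With windows of 2 and 10 Mb this split came at 140 Mb. The log2 fold of hairpin #4 against #1 was 0.12 before 145 Mb and 0.28 after it. It was near 0 over the first 15 Mb, at 0.0073, 0.0043 and 0.01 in the windows from 0, 5 and 10 Mb, and it reached 0.33 from 160 to 165 Mb. The median after 145 Mb minus that before it, per library, was 0.06 ± 0.01 in NTC, -0.11 ± 0.01 with hairpin #1 and 0.04 ± 0.01 with hairpin #4 (SD, n = 3). It is on a log2 scale on which each peak is set against its mean over 9 libraries. Hairpin #1 lay below 0 in each of its libraries, and the others lay above. Hairpin #4 against hairpin #1 gave p = 0.1 in a two-sided exact permutation test, which is the smallest value that 3 against 3 libraries allow. Since the split at 145 Mb was placed on the folds with hairpin #1, that difference is a description too.

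**Figure D3:**
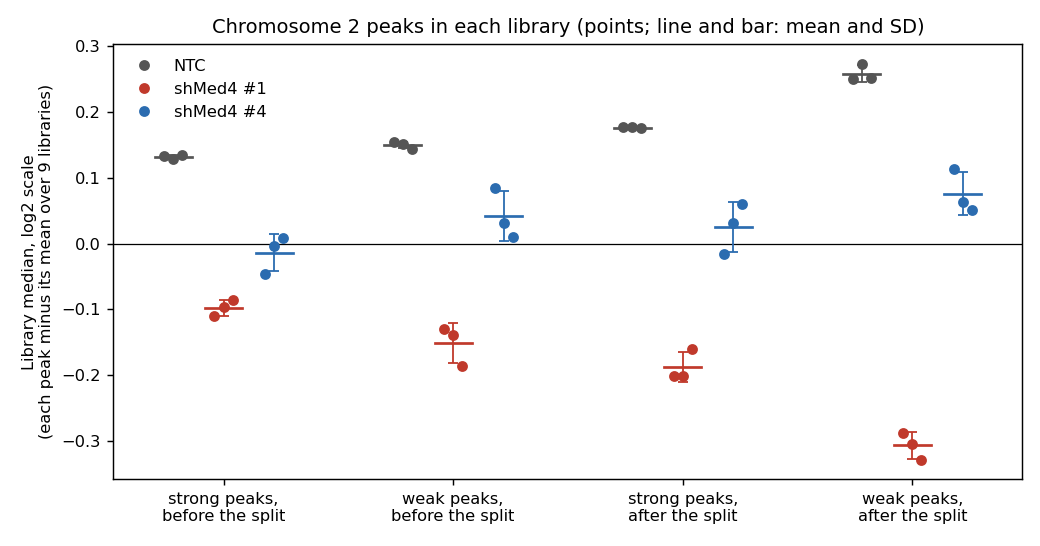
Median of the chromosome 2 peaks in each library, before and after the split at 145 Mb, on a log2 scale with each peak set against its mean over 9 libraries; lines and bars are the mean and SD of 3 libraries. The hairpin #1 libraries lie below the others in each class, and lowest in weak peaks after the split, at -0.31 ± 0.02.

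The step was found at gene ends and elsewhere. Gene-end peaks, with an edge no more than 1 kb from the start or end of a coding gene, made up 11.9% of the peaks before 145 Mb and 14.8% after it. With hairpin #1 the 1005 gene-end peaks before the split had a median of -0.35 and the 465 after it -0.46. Peaks away from gene ends had medians of -0.24 and -0.44. The median NTC level was 206 normalised reads before the split and 218 after it, so peak height differed little between the sides.

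Strong and weak peaks were divided at the median level of all peaks in the genome, 195 normalised reads over the 9 libraries. The 5862 strong peaks of chromosome 2 had a median of -0.28 with hairpin #1 and the 5695 weak peaks -0.39. With hairpin #4 the medians were -0.16 and -0.17. Weak peaks lay below strong peaks in 27 of the 35 windows that held enough of both with hairpin #1, and in 17 of 35 with hairpin #4. This gap depends on how height is defined. When height was taken from the NTC libraries alone, the medians with hairpin #1 were -0.31 for strong and -0.33 for weak peaks, and with hairpin #4 the order turned, at -0.19 and -0.11. Both classes were below 0 nearly everywhere: 35 of 35 windows for strong and 36 of 36 for weak peaks with hairpin #1, and 34 of 35 and 33 of 36 with hairpin #4.

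Weak peaks after the split carried the widest distance between the hairpins. Their library medians were -0.31 ± 0.02 with hairpin #1 and 0.08 ± 0.03 with hairpin #4 (SD, n = 3), a difference of 0.38. For strong peaks before the split the difference was 0.08. The exact permutation p was 0.1 in each class. The median log2 fold of hairpin #4 against #1 was 0.25 for weak and 0.12 for strong peaks of chromosome 2. On all other chromosomes it was 0.05 for weak and -0.05 for strong peaks. Weak peaks thus lay above strong ones in this contrast elsewhere too. Over the whole chromosome 4325 peaks (37.4%) were called higher with hairpin #4 than with #1 and 1290 (11.2%) lower, beside 20.4% and 21.2% of all peaks. With each chromosome centred the counts were 2309 and 2503, beside 18.7% and 20.1%.

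The window around Jag1, from 135 to 140 Mb, was the shallowest with hairpin #4 and among the 3 shallowest with hairpin #1. Of its 290 peaks, 19 (6.55%) were at least 2-fold higher with hairpin #1 and 21 (7.24%) with hairpin #4, near the 6.53% and 7.13% of all peaks. Those nearest to Jag1, the Notch ligand, numbered 3 and 2, and those nearest to Plcb1, a phospholipase C, 2 and 3. Snap25, of the machinery of vesicle fusion, and Sptlc3, of sphingolipid synthesis, had 2 each with either hairpin. The strong peaks of the window had medians of -0.05 and 0.03, and the weak peaks -0.26 and -0.06. From 80 to 85 Mb, 11 of 167 peaks (6.59%) were at least 2-fold higher with hairpin #1 and 24 (14.4%) with hairpin #4. The latter held 5 peaks nearest to Calcrl, a receptor for adrenomedullin and calcitonin gene-related peptide, and 4 nearest to Tfpi, the tissue factor pathway inhibitor. From 160 to 165 Mb, the lowest window with hairpin #1, only 2 of 398 peaks (0.503%) were 2-fold higher with that hairpin and 10 (2.51%) with hairpin #4.

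Long runs of neighbouring peaks lay on the same side of 0. With hairpin #1, 61 runs of at least 20 consecutive peaks with a fold below 0 covered 1638 chromosome 2 peaks (14.2%), beside 2.41% of the peaks of the genome. With hairpin #4, 18 such runs covered 466 peaks (4.03%), beside 1.73%. A chromosome with most folds below 0 holds more such runs for that reason alone. After centring, 7 runs with 161 peaks (1.39%) lay below 0 with hairpin #1, beside 1.06% of all peaks, and 3 runs with 66 peaks (0.571%) with hairpin #4, beside 1.32%. The runs named next are those before centring, so they include the chromosome's own shift. Of these, the longest with hairpin #1 held 52 peaks over 211 kb around Ube2v1, Tmem189 and Cebpb. Its median log2 fold was -0.54, where hairpin #4 had -0.15. A run of 50 peaks from Noxa1 to Sapcd2, which includes the Notch regulator Nrarp and the anaphase-promoting complex gene Anapc2, had medians of -0.41 and -0.31. Another of 49 peaks, from Ada to Stk4, had -0.83 and -0.39. A run of 33 peaks within 69.3 kb around Col5a1, a fibrillar collagen gene, had -0.90 and -0.53. The single run of raised peaks with hairpin #1 was 20 peaks long, spanned 723 kb near the gene BC052040 at chr2:114853835-115576708, and had medians of 1.55 and 2.25 from a median NTC level of 52.6 normalised reads. Such raised runs covered 0.173% of chromosome 2 peaks, beside 2.06% of all peaks, and 0.19% beside 2.77% with hairpin #4. A chromosome with most folds below 0 holds fewer of them for that reason alone. After centring, 3 raised runs with 66 peaks (0.571%) were found with hairpin #1, beside 1.53% of all peaks. With hairpin #4 there were 4 with 92 peaks (0.796%), beside 2.28%.

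Single peaks departed far from the shift in either direction. The 12 highest and 12 lowest are those with the largest mean fold over both hairpins among peaks called with both in the same direction, 1 peak per gene, and they are assigned to the nearest protein-coding gene, which is a convention and not a measured target. For each, the log2 fold against NTC is given with its SE, and p-values are those of limma with each chromosome centred, adjusted over all peaks, so that they test departure from the chromosome's own shift. The peaks were chosen by size, so the p-values do not stand as independent evidence.

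The most raised peak lay in Meis2, which encodes a TALE homeobox transcription factor, at chr2:116065432-116065933. It held 21.8, 28.8 and 19.6 in NTC, 220.1, 231 and 230.0 with hairpin #1 and 211, 283 and 291 with hairpin #4 (normalised reads per library). No hairpin library came near the NTC range. Its log2 fold was 3.24 ± 0.16 with hairpin #1 and 3.43 ± 0.16 with hairpin #4, and 3.55 with hairpin #1 and 3.57 with hairpin #4 after centring (adjusted p = 3.3e-20 and 3.3e-20). A second Meis2 peak, within 1 kb of a gene end, went from 29.4 ± 5.51 in NTC to 244 ± 33 and 286 ± 24.8 with the hairpins (SD, n = 3).

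A peak at the start of Grb14, an adaptor that inhibits insulin receptor signalling, held 31.5, 24.6 and 35.2 in NTC, 223, 224 and 221 with hairpin #1 and 251, 309.5 and 289 with hairpin #4. Its centred fold was 3.15 with hairpin #1 and 3.32 with hairpin #4 (adjusted p = 7.9e-20 and 2e-20). The promoter printed above overlaps this peak by 277 bases. The peak at the start of Kif5c, a kinesin heavy chain used in axonal transport, held 36.3, 34.9 and 33.5 in NTC, 243, 245 and 246 with hairpin #1 and 337, 321 and 286 with hairpin #4. Its promoter overlaps it by 291 bases, and the centred fold was 3.08 with hairpin #1 and 3.27 with hairpin #4 (adjusted p = 4.2e-21 and 9e-22). Both peaks were at a low level in every NTC library and higher in every hairpin library.

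Other raised peaks lay away from gene starts. One in Bbs5, a BBSome subunit of the cilium, held 146, 144 and 125 in NTC, 1062, 936 and 1023 with hairpin #1 and 879, 898 and 901 with hairpin #4. The strongest of the raised peaks lay in Psmf1, which encodes a proteasome inhibitor, and held 555, 533 and 524 in NTC, 3683, 3463 and 3572 with hairpin #1 and 3302, 3266 and 3131 with hairpin #4. Its log2 fold was 2.73 ± 0.05 with hairpin #1 and 2.59 ± 0.05 with hairpin #4, with the hairpin groups above NTC and hairpin #1 above hairpin #4 in each library. A peak in Jag1 held 107, 88.3 and 89.2 in NTC, 598, 535 and 555 with hairpin #1 and 475, 478 and 497 with hairpin #4. This gene lies in the window whose median was the highest of the chromosome with hairpin #4.

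A peak 18.5 kb from Acvr1c, the activin-type receptor ALK7, rose far more with hairpin #4 and held 7.26, 16.4 and 8.18 in NTC, 34.4, 47 and 40.7 with hairpin #1 and 118, 111 and 95.3 with hairpin #4. The difference between the hairpins was 1.39 ± 0.30 on the log2 scale (limma adjusted p = 0.00023). For the remaining raised peaks the log2 folds with hairpins #1 and #4 were 2.56 and 2.80 near Mapkap1, a subunit of mTORC2, and 2.31 and 2.74 in Vav2. They were 2.66 and 2.37 in P2rx3, an ATP-gated channel, 2.38 and 2.63 in Fam171a1, and 2.44 and 2.57 in Arhgap40.

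**Figure D4:**
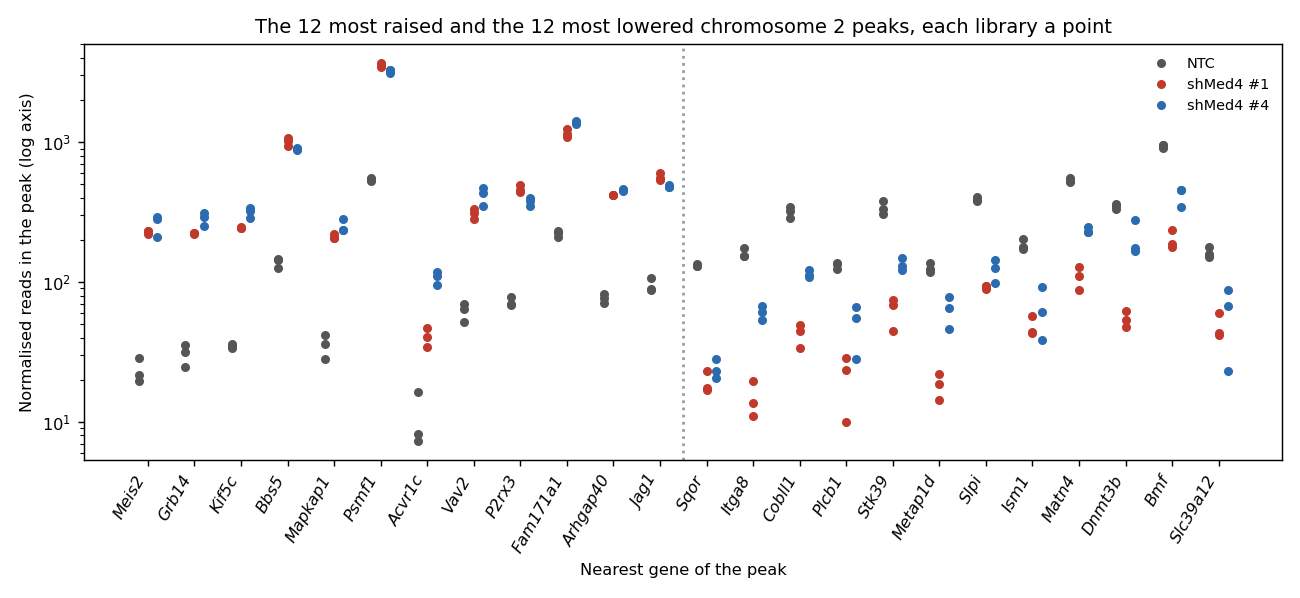
Normalised reads in each of the 9 libraries (points, logarithmic axis) for the 12 most raised peaks, left of the dotted line, and the 12 most lowered peaks, right of it, named by nearest gene. The groups NTC and hairpin do not overlap at any of the 24 peaks. These were picked for large folds called with both hairpins, so that separation is no evidence of its own. At most of the lowered peaks hairpin #1 lies below hairpin #4.

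Among the lowered peaks, one in Sqor, the mitochondrial sulfide quinone oxidoreductase, fell to a like level with both hairpins. It held 131, 130.4 and 135 in NTC, 23.2, 17 and 17.6 with hairpin #1 and 20.8, 23 and 28.2 with hairpin #4, and the centred fold was -2.42 with hairpin #1 and -2.29 with hairpin #4 (adjusted p = 6.7e-10 and 3.1e-09). A peak in Itga8, the integrin alpha 8 chain, held 153, 175 and 155 in NTC, 13.6, 19.5 and 11 with hairpin #1 and 53.6, 61.4 and 67 with hairpin #4. Hairpin #1 lay below hairpin #4 in every library, by 2.00 ± 0.24 on the log2 scale for hairpin #4 against #1 (adjusted p = 8.4e-09). The Itga8 peak at the gene's start did not fall with it, at 234 ± 19 in NTC, 208 ± 15.8 with hairpin #1 and 288 ± 19.5 with hairpin #4, so the loss at Itga8 was not uniform along the gene.

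The peak at the start of Dnmt3b, a de novo DNA methyltransferase, held 333, 362 and 351 in NTC, 53.6, 47.9 and 61.6 with hairpin #1 and 166, 175 and 279 with hairpin #4. The printed promoter lies within it. Its log2 fold was -2.67 ± 0.15 with hairpin #1 and -0.79 ± 0.15 with hairpin #4, and the difference between the hairpins, 1.87 ± 0.15, had an adjusted p of 9e-13. After centring the folds were -2.36 with hairpin #1 and -0.66 with hairpin #4 (adjusted p = 3.4e-16 and 0.00037). A peak near a gene end of Bmf, a pro-apoptotic BH3-only protein, was the strongest of the lowered set and held 949, 951 and 901 in NTC, 234, 177 and 188 with hairpin #1 and 453, 451 and 346 with hairpin #4. The hairpin #1 libraries were again the lowest.

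Peaks near Slpi, a secreted peptidase inhibitor, and Matn4, a matrilin of the extracellular matrix, are neighbours. The Slpi peak held 387, 408 and 379.6 in NTC, 93.6, 94.1 and 89.1 with hairpin #1 and 143, 125 and 98.8 with hairpin #4, and the Matn4 peak 550.5, 517 and 528 in NTC, 109.6, 129 and 88 with hairpin #1 and 228, 246 and 229 with hairpin #4. Both fell with each hairpin. The log2 folds of the other lowered peaks with hairpins #1 and #4 were -2.88 and -1.46 in Cobll1, -2.73 and -1.47 in Plcb1, a phospholipase C, and -2.45 and -1.33 in Stk39, a kinase of cation-chloride cotransport. They were -2.74 and -1.03 in Metap1d, a mitochondrial aminopeptidase, -1.93 and -1.61 in Ism1, a secreted protein, and -1.75 and -1.64 in Slc39a12, a zinc transporter. The Slc39a12 fold with hairpin #4 was -1.07 without hairpin #4 replicate 3. The difference between the hairpins passed the threshold at 9 of the 12 peaks, in each with hairpin #1 lower. Over the chromosome 37.4% of the peaks were called in that direction, beside 20.4% of all peaks, so the direction was that of the chromosome. The size was not, since these differences ran from 0.39 at Slpi to 2.00 at Itga8. The chromosome's median for hairpin #4 against #1 was 0.17.

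Some peaks moved with 1 hairpin or in opposite directions with the pair. The 5 highest for hairpin #4 against #1 were led by Celf2, an RNA-binding splicing regulator, where a peak held 178, 118 and 122 in NTC, 109.6, 151 and 131 with hairpin #1 and 656, 604 and 702 with hairpin #4. Its NTC and hairpin #1 libraries overlapped, and the difference between the hairpins was 2.33 ± 0.13 (adjusted p = 5.3e-17). A peak in Calcrl held 59.7, 58.5 and 52.4 in NTC, 27.2, 31.6 and 40.7 with hairpin #1 and 176, 155 and 173 with hairpin #4, with hairpin #1 below NTC and hairpin #4 above it. A peak in Frmd4a, a scaffold of epithelial polarity, did likewise, with 54.9, 51.3 and 66.3 in NTC, 25.6, 17 and 27.5 with hairpin #1 and 97.7, 119 and 119.9 with hairpin #4. The differences were 2.32 ± 0.20 and 2.24 ± 0.23. In Kcna4, a voltage-gated potassium channel, the difference was 2.27 ± 0.23, and at a peak 4.78 kb from Ism1 it was 2.30 ± 0.21.

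The 5 lowest for hairpin #4 against #1 were peaks that hairpin #1 raised. In Pde1a, a calmodulin-dependent phosphodiesterase, the peak held 42.8, 31.8 and 38.5 in NTC, 114, 128 and 114 with hairpin #1 and 25.1, 30.7 and 10.6 with hairpin #4. The difference was -2.50 ± 0.28 (adjusted p = 4.3e-09). In Itgav, the integrin alpha V chain, the peak held 92, 92.4 and 89.2 in NTC, 226, 194 and 193 with hairpin #1 and 75.3, 75.5 and 75.8 with hairpin #4. The hairpin #4 libraries stood below NTC and the hairpin #1 libraries above it. The differences were -1.64 ± 0.15 in Terb2, a meiotic telomere protein, -1.59 ± 0.13 in Abtb2 and -1.54 ± 0.14 at the peak 82.6 kb from Scp2d1.

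Of the 5 strongest peaks of the chromosome by NTC level, only that nearest to Cebpb departed from the chromosome's shift past the threshold. The strongest, 17.5 kb from Atp8b4, a phospholipid flippase, held 11086, 11528 and 11336 in NTC, 8855, 8617 and 9140.1 with hairpin #1 and 9678, 10373 and 10781 with hairpin #4. Its log2 fold was -0.35 ± 0.04 with hairpin #1 and -0.14 ± 0.04 with hairpin #4, and -0.05 with hairpin #1 and -0.003 with hairpin #4 after centring (adjusted p = 0.36 and 0.96). The peaks nearest to Cd93, Pxmp4 and Nfatc2 had centred folds between -0.04 and 0.10, none past the threshold with either hairpin. That does not show that they moved with the chromosome. With 1 library left out, their uncentred folds with hairpin #4 ran from -0.09 to 0.01, -0.09 to 0.03 and -0.13 to 0.02. The chromosome's median with hairpin #4 was -0.16. The peak nearest to Cebpb was lower than the chromosome, by -0.23 and -0.11 (adjusted p = 5.8e-05 and 0.038). With hairpin #1, then, little was left at the strongest sites once the chromosome's own shift was taken out, except near Cebpb.

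At genes, 1022 genes of chromosome 2 had a gene-end peak, of which the strongest was taken. With hairpin #1, 867 (84.8%) were called lower and 53 (5.19%) higher, with a median log2 fold of -0.37. Over 13058 genes of the genome 35.8% were lower and 11.3% higher, with a median of -0.09. With hairpin #4, 649 (63.5%) were called lower and 83 (8.12%) higher, with a median of -0.21, beside 41.8% and 11.2% and a median of -0.12. After centring, 286 of the 1022 were called lower and 121 higher with hairpin #1, and 284 lower and 117 higher with hairpin #4. Gene lists were read against these medians and shares. With hairpin #1 the share called lower was 95.8% for the cell cycle list, 81.8% for integrins and matrix and 66.7% for the mesenchymal list. It was 82.4% for transcription factors and 84.2% for signalling and metabolism. With hairpin #4 these shares were 79.2%, 63.6%, 55.6%, 64.7% and 73.7%. Strand was not used to pick the end, some peaks serve neighbouring genes, and no list was tested.

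Of the cell cycle and replication list, 24 of 25 genes on the chromosome were measured, at strong peaks with a median NTC level of 2115 normalised reads. With hairpin #1, 23 were called lower and 0 higher, with a median of -0.41. With hairpin #4, 19 were called lower and 0 higher, with a median of -0.23. After centring 11 and 8 were called lower and 0 higher with either, beside 36.5% and 39.5% of all genes lower and 9.92% and 10.6% higher. Of the 1022 genes of chromosome 2, 286 and 284 were then lower. Gins1, a subunit of the replicative helicase complex, held 2185 ± 95.9 in NTC, 1509 ± 74.9 with hairpin #1 and 1722 ± 77.5 with hairpin #4 (SD, n = 3). Nek6, a mitotic kinase that shares its peak with Psmb7, held 76.5 ± 14.9 in NTC, 29.3 ± 5.92 with hairpin #1 and 53.3 ± 5.21 with hairpin #4. Knl1, a kinetochore scaffold, had log2 folds of -0.15 and -0.20, and Cdca7, a chromatin factor, -0.22 and -0.04, so the least affected members still lay below 0. Knl1 lost its call with hairpin #4 without any of the NTC libraries or hairpin #4 replicate 2 or 3 (-0.23 to -0.18), and Cdca7 its call with hairpin #1 without NTC replicate 1 (-0.26 to -0.17).

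Integrin and matrix genes were measured at 11 of 22. With hairpin #1, 9 were called lower and 0 higher, and with hairpin #4, 7 lower and 1 higher, the latter being Itga8, whose call was lost without NTC replicate 1 or 3 or hairpin #4 replicate 2 (log2 fold from 0.25 to 0.36 with 1 library left out). After centring 4 and 3 were called lower and 1 higher with each hairpin. Thbs1, which encodes thrombospondin 1, separated the hairpins, with 331 ± 10.1 in NTC, 128 ± 28.2 with hairpin #1 and 301 ± 34.3 with hairpin #4. The difference of 1.25 ± 0.12 had an adjusted p of 1.1e-10. Fbln7, the fibulin whose promoter is printed above, fell with both, from 331 ± 36.6 in NTC to 185 ± 16.4 and 199.9 ± 26.4. Cd44, the hyaluronan receptor, held 2005 ± 32.8 in NTC, 1736 ± 111 with hairpin #1 and 1942 ± 205 with hairpin #4.

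Mesenchymal and cytoskeletal genes were split. Of 14 on the chromosome 9 were measured, and with hairpin #1 6 were called lower and 2 higher, with hairpin #4 5 lower and 2 higher. After centring 2 were called lower with hairpin #1 and 5 with hairpin #4, and 3 higher with each. Myl9, a myosin regulatory light chain, rose, with 44.1 ± 8.92 in NTC, 112 ± 12.1 with hairpin #1 and 178 ± 19.9 with hairpin #4. Zeb2, a transcription factor of epithelial-mesenchymal transition, rose as well, with 70.4 ± 11.2 in NTC, 118 ± 12.3 with hairpin #1 and 103 ± 11.5 with hairpin #4, but its call with hairpin #4 was lost without NTC replicate 2 (log2 fold 0.43 to 0.66 with 1 library left out). Vim, the intermediate filament vimentin, fell by like amounts with both, with 4155 ± 227 in NTC, 3072 ± 18.1 with hairpin #1 and 3085 ± 176 with hairpin #4. Src, the tyrosine kinase, held 4814 ± 46.9 in NTC, 3379 ± 134 with hairpin #1 and 3909 ± 287 with hairpin #4.

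Transcription factor genes were measured at 17 of 26. With hairpin #1, 14 were called lower and 2 higher, and with hairpin #4, 11 lower and 2 higher. After centring 6 and 7 were called lower and 2 higher with each. Meis2 and Nfatc2, a calcium-regulated factor, were the risers, and the Nfatc2 peak held 127 ± 3.5 in NTC, 278 ± 3.56 with hairpin #1 and 351 ± 23 with hairpin #4. This raised peak sits at the start of the gene. The strong distal peak named above, nearest to the same gene, did not depart from the chromosome's shift past the threshold. Notch1, the Notch receptor, held 237 ± 3.06 in NTC, 130.3 ± 11.2 with hairpin #1 and 188 ± 25.5 with hairpin #4. The Notch1 call with hairpin #4 was lost without NTC replicate 2 or 3 or hairpin #4 replicate 3 (-0.43 to -0.23). Zfp217, a zinc finger protein, held 78.4 ± 11 in NTC, 40.6 ± 6.12 with hairpin #1 and 42 ± 17 with hairpin #4.

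Signalling and metabolism genes were measured at 19 of 25. With hairpin #1, 16 were called lower and 1 higher, and with hairpin #4, 14 lower and 1 higher. After centring 4 and 7 were called lower and 3 higher with each. The riser without centring was Ass1, argininosuccinate synthase of arginine synthesis, with 36.1 ± 7.25 in NTC, 149.6 ± 17 with hairpin #1 and 195 ± 10.4 with hairpin #4. Acss2, a cytosolic acetyl-CoA synthetase, held 6244 ± 518 in NTC, 4379 ± 261 with hairpin #1 and 5098 ± 619.6 with hairpin #4. The gene-end peak of Sqor had log2 folds of -0.54 and -0.53, far less than the peak inside the gene. Il1a, the cytokine interleukin 1 alpha, had 0.31 with hairpin #1 and -0.43 with hairpin #4, a difference of -0.74 (adjusted p = 0.00046). Its call with hairpin #4 was lost without NTC replicate 1 or 2 or hairpin #4 replicate 1 or 2 (-0.50 to -0.37), and with hairpin #1 it passed only without hairpin #1 replicate 1 among the libraries left out (0.16 to 0.46).

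Smaller lists followed the chromosome for the most part. Imprinted genes were measured at 4 of 7, and 3 were called lower with each hairpin. Nnat, which lies within the intron of Blcap, held 104 ± 10.5 in NTC, 29.3 ± 1.68 with hairpin #1 and 50.2 ± 17.7 with hairpin #4, and Blcap held 244 ± 18.7 in NTC, 129.7 ± 2.34 with hairpin #1 and 167 ± 32.5 with hairpin #4. H13, a signal peptide peptidase, lost its call with hairpin #4 without any of the NTC libraries or hairpin #4 replicate 1 (-0.22 to -0.07). L3mbtl1, a chromatin reader, had 0.06 and -0.07 and was called with neither. Of the HoxD cluster and its neighbours 5 of 14 were measured, 4 of them called lower with each hairpin and 0 higher, but after centring 0 with hairpin #1 and 2 with hairpin #4. Hoxd13 held 67.2 ± 3.96 in NTC, 56.5 ± 2.37 with hairpin #1 and 42.1 ± 4.32 with hairpin #4, and the other 3 named, Atf2, Atp5g3 and Lnpk, fell by 0.20 to 0.38 on the log2 scale.

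Mediator's own genes on chromosome 2 are Med22, Med19 and Med27. Med22, which shares its peak with Rpl7a, had -0.42 and -0.34. Med19, which shares its peak with Tmx2, had -0.29 with hairpin #1 and 0.01 with hairpin #4. Med27 had -0.13 and -0.14, and its call with hairpin #4 was lost when NTC replicate 1 or 3, or hairpin #4 replicate 2 or 3, was left out (-0.17 to -0.12). All 4 ribosomal protein genes were called lower with each hairpin, from -0.49 to -0.32 with hairpin #1 and from -0.34 to -0.19 with hairpin #4. They were Rps21, Rpl7a, Rpl35 and Rpl12, and after centring 1 and 2 of them were called lower. The Rps21 call with hairpin #4 was lost without hairpin #4 replicate 1 (-0.25 to -0.09).

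Olfactory receptor genes are 287 in number on the chromosome, and 4 had a gene-end peak. The largest cluster, 222 genes over 5.07 Mb, held 4 peaks in all. The others, of 28 and 37 genes, held 3 and 2 peaks. Olfr1301 rose with hairpin #4, with 127 ± 1.6 in NTC, 99.8 ± 12.1 with hairpin #1 and 207 ± 39.9 with hairpin #4, and its call lower with hairpin #1 was lost when any NTC library, or hairpin #1 replicate 1 or 2, was left out (-0.44 to -0.28). Olfr1033 held 29.9 ± 6.4 in NTC, 39.9 ± 9.32 with hairpin #1 and 54.1 ± 16.5 with hairpin #4. Its call higher with hairpin #4 was lost without NTC replicate 1 or hairpin #4 replicate 1 or 2 (0.62 to 1.08). Olfr368 fell by 0.39 with each hairpin, and Olfr347 had -0.0062 and -0.04. With so few peaks, these clusters give almost no reading of the chromosome's shift over the largest, at chr2:85330967-90401674.

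**Figure D5:**
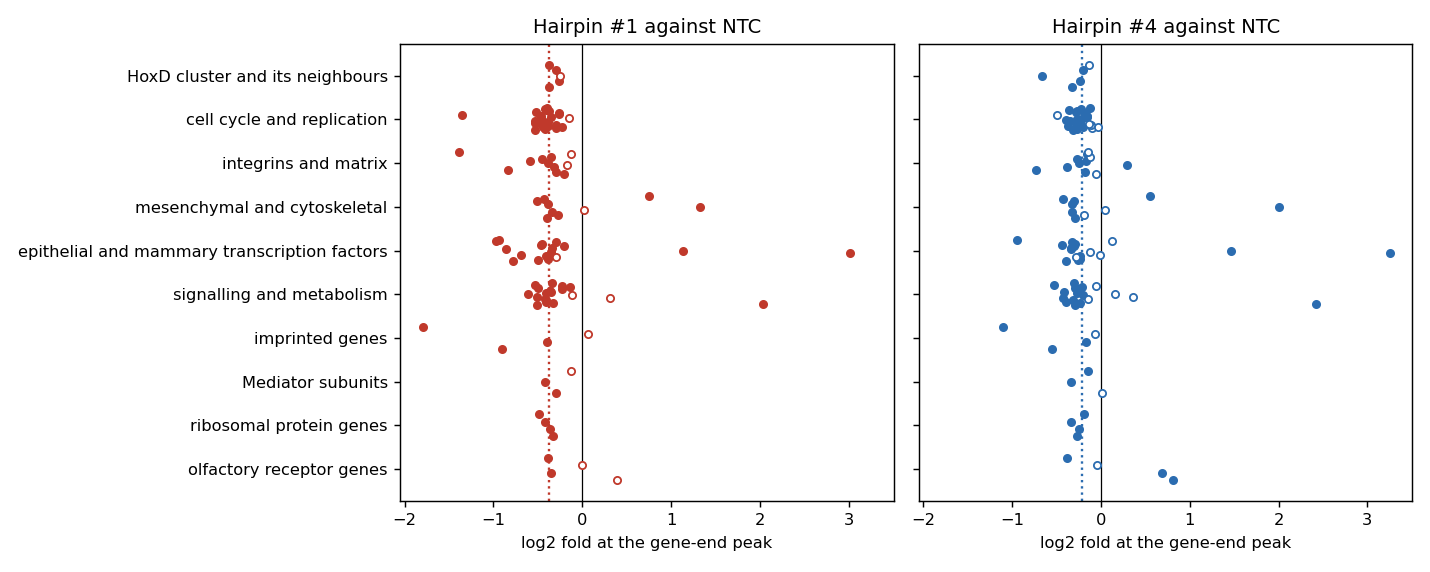
Log2 fold against NTC at the gene-end peak of each measured gene of the 10 lists (points), with filled points for those past the limma threshold and dotted lines at the chromosome's gene-end medians of -0.37 and -0.21. Most members cluster around the dotted lines, and Meis2, Ass1, Myl9, Nfatc2 and Zeb2 stand apart to the right in both panels.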

How the data were processed

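The authors deposited a signal for each of 146734 peaks in every library, namely normalised reads, and the file's name credits DESeq2. Per the submitters' processing notes, Trim Galore, BWA, MACS2, Subread and featureCounts were used (versions not given), with mm10 and GRCm38 as builds. The sources used here do not say if peaks came from single or pooled libraries, nor if coordinates count from 0. Each library's values came in even steps, taken as the worth of 1 read (tolerance 0.001 of a read), and depth was read from these. Intervals of depth cover counting error only.

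The values were set to log2 after adding 1 and fitted with limma 3.58.1 in R 4.3.3 (lmFit, eBayes with a trend, 1 mean per group, 9 libraries). Peaks under a mean of 10 were left out, which kept 146729, and p-values were adjusted by the Benjamini-Hochberg method over them. In a second fit, each library's median on each chromosome was subtracted first. A fold is on the log2(value + 1) scale and understates the change of low peaks. Windows of 5 Mb with at least 20 peaks per class were summarised by medians, with 2 and 10 Mb as alternatives. Single library values were compared by an exact permutation test. Genes and ends came from the RefSeq table of the GRCm38.p6 assembly (21896 protein-coding genes), and promoters from RefSeq on the same assembly. Named peaks had a mean of at least 50, a nearest gene within 100 kb that is no predicted gene, and were the 12 highest and 12 lowest over both hairpins among peaks called with both, the 5 highest and 5 lowest for hairpin #4 against #1, the 5 with the highest NTC level, and the 2 highest and 2 lowest members of each list. The fits were tested on simulated data. The members and gene lists were chosen with earlier results of these data known. Tests on counts (edgeR, DESeq2) were planned but not run. They were made to depend on a second check of whole reads, over the lowest values only with the smallest taken as 1 read, and 3 of 9 libraries passed it, while in 5 the smallest value stood for 2 reads. Tables were handled with pandas 2.3.3, numpy 2.4.6, scipy 1.17.1 and data.table (version 1.17.8), in Python 3.11.15, and figures drawn with matplotlib 3.10.9.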

Additional observations from a re-analysis of the deposited data

Results flagged for a closer look

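The difference between hairpin #4 and hairpin #1, which is independent of NTC, passed limma's adjusted threshold at 48 of the named peaks. In this contrast 37.4% of chromosome 2 peaks were called higher and 11.2% lower, beside 20.4% and 21.2% of all peaks. Peaks named as the highest and lowest for hairpin #4 against #1 were picked for this very difference, so their passing is no evidence. The same holds for the Acvr1c peak, which was named only through its hairpin #4 level. Each value here is the log2 fold of hairpin #4 against #1. With each peak named by its nearest gene, hairpin #4 was higher by 2.33 at Celf2, 2.32 at Calcrl, 2.27 at Kcna4 and 2.24 at Frmd4a. It was higher by 2.30 at the Ism1 peak at 139668333 and by 2.00 at the Itga8 peak at 12174669. Among the other lowered peaks it was higher by 1.87 at Dnmt3b, 1.71 at Metap1d, 1.42 at Cobll1, 1.26 at Plcb1, 1.12 at Matn4, 1.11 at Stk39, 1.06 at Bmf and 0.39 at Slpi. Among the raised peaks the values were 1.39 at Acvr1c, 0.43 at Vav2, 0.36 at Kif5c, 0.25 at Fam171a1, -0.14 at Psmf1 and -0.28 at P2rx3. Hairpin #4 was lower at Pde1a (-2.50), Terb2 (-1.64), Abtb2 (-1.59), Scp2d1 (-1.54), Itgav (-1.42) and Il1a (-0.74).

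At the strongest peaks the value was 0.21 at Atp8b4, 0.25 at Cd93, 0.27 at Pxmp4, 0.29 at Cebpb and 0.27 at the Nfatc2 peak at 168458562. At gene ends it was 1.25 at Thbs1, 1.04 at Olfr1301, 0.86 at Nek6, 0.69 at Nnat, 0.67 at Myl9, 0.52 at Notch1 and 0.47 at the Itga8 peak at 12301803. It was 0.35 at Blcap, 0.33 at the Nfatc2 peak at 168601591, 0.30 at Med19, 0.30 at Rps21, 0.23 at H13, 0.21 at Src, 0.21 at Acss2, 0.19 at Gins1, 0.19 at Cdca7 and 0.16 at Cd44. The median of all chromosome 2 peaks was 0.17, so the smallest of these lie near the chromosome's own difference between the hairpins.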

How the results depend on the processing

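No median of the chromosome and no called fold of a named peak changed sign under the alternatives run, and counts of calls moved by under 1.5 times except as stated. Scaling set the medians against NTC. Centring on gene-end peaks moved the median of all tested peaks from -0.01 to 0.09 with hairpin #1 and from -0.02 to 0.09 with hairpin #4. Chromosome 2 then had -0.22 with hairpin #1 (strong -0.18, weak -0.29) and -0.057 with hairpin #4 (strong -0.053, weak -0.063), with 2689 peaks called lower and 2533 higher with hairpin #4 and 0.17 for hairpin #4 against #1. With equal totals the values were -0.35 with hairpin #1 (strong -0.31, weak -0.42) and 0.20 for hairpin #4 against #1 (strong 0.15). Centring on the other chromosomes gave -0.34 with hairpin #1 (strong -0.30), -0.18 with hairpin #4 and 0.18 between the hairpins. A pseudocount of 5 gave -0.31 and -0.16, and a minimum mean of 50 gave -0.31 with hairpin #1 and 0.16 between the hairpins. Splitting height by NTC gave strong -0.31 and weak -0.33 with hairpin #1 and weak -0.11 with hairpin #4, and comparing only the most and least accessible peaks gave weak -0.43 with hairpin #1 and 0.29 between the hairpins. At an adjusted p under 0.01, 1591 peaks were called lower with hairpin #4 after centring. With windows of 2 Mb the difference across the hairpin #4 split was 0.062, and with 10 Mb strong windows below 0 with hairpin #4 were 100%. With 1 library left out, the median ranged from -0.32 to -0.31 with hairpin #1, from -0.17 to -0.16 with hairpin #4 and from 0.16 to 0.17 between the hairpins. The cause was not tested for any of these.

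Among named peaks, calls at H13, Il1a, Itga8, Knl1, Med27, Notch1, Olfr1033 and Zeb2 with hairpin #4, Olfr1301 and Cdca7 with hairpin #1 and Rps21 with hairpin #4 were lost when at least 1 library was left out. Centring on gene-end peaks ended 12 calls and limma without a trend, added after seeing the data, 9. Deviations of same-numbered libraries of different groups had correlations of -0.01 to 0.07, and those of other pairs -0.10 to 0.04. The values are small and the ranges overlap, so this check cannot decide whether the replicate numbers pair the libraries. A replicate block gave 6506 and 1606 peaks called lower and higher with hairpin #1, 4516 and 2084 with hairpin #4, and medians of -0.32 and -0.16, with the call kept at each named peak. Tests with edgeR or DESeq2 and TMM scaling were not run. Depth limits the weakest peaks, with single values as low as 7.26 normalised reads at Acvr1c and 9.90 at Plcb1.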
